A study of Gallus gallus with 12 samples.

Results

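Of 28756 chicken transcripts measured in 12 otocysts, 122 differed in the same direction between the right (transfected) and the left (untransfected) otocyst of all 6 embryos. They were chosen by 3 conditions: a mean of at least 2 CPM (estimated counts scaled to a fixed library total, with TMM factors) over the 12 otocysts, a right minus left difference in log2 CPM of the same sign in every embryo, and a size of at least 0.15 in every embryo. The level condition left 15060 transcripts, so the 122 made up 0.81% of them. Of the 122, 36 were higher on the right (0.239% of the 15060) and 86 were lower (0.571%). Because right minus left chose these transcripts, their right minus left values are given below as a description, and no test of right against left is read as evidence for them.

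The otocysts came from White Leghorn embryos of embryonic day 3. In the Wnt LOF EP 24 h dataset, the right otic placode of embryos 50, 51 and 52 had been electroporated in ovo with DNBCAT, a dominant-negative β-catenin joined to mCherry by a 2A peptide in a Tol2 plasmid. In the Control EP dataset, embryos 60, 61 and 62 had received the Tol2 plasmid with mCherry alone, and all embryos were collected 24 h later. All left otocysts were untransfected, and each otocyst, cleaned of the surrounding mesenchyme, was sequenced as 1 library. Transfection by electroporation is mosaic and only strongly transfected embryos were kept for sequencing, so each right otocyst was a mixture of transfected and untransfected cells. In such whole-organ samples, fewer cells of a type and less RNA per cell cannot be told apart. The electroporated side was always the right, so electroporation, the plasmid and any difference between right and left ears that exists without treatment also cannot be told apart.

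The otocyst is the closed epithelial vesicle that gives rise to the sensory patches, the non-sensory epithelium and the sensory neurons of the inner ear. In ovo electroporation drives plasmid DNA into the cells on one side of the embryo by short voltage pulses, and the opposite ear of the same embryo serves as its untreated counterpart. In the Wnt pathway, secreted Wnt ligands bind Frizzled receptors and stabilise β-catenin, which acts with TCF/LEF factors in the nucleus. Wnt activity is high in the dorsal otocyst, where it takes part in dorso-ventral patterning.

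Total estimated counts were between 14495175 and 16097100 in the right otocysts and between 13157404 and 15243921 in the left ones, and the total was higher on the right in 6 of 6 embryos. The part of this difference in depth in the results was not tested. One library stood apart, the right otocyst of embryo 51, in which the 5 most counted transcripts took 9.02% of the counts, against 2.91 to 3.83% in the other 11 libraries. Its TMM factor was 0.775, whereas those of the others lay between 0.98 and 1.07. The summed TPM (length-corrected abundance, which adds up to the same total in every library) of 20 otic dorso-ventral and regional marker transcripts was 466 to 1655 in the right and 1204 to 1669 in the left otocysts, and LHX5 and HOXA3 were at 0 counts in some otocysts. On the CPM scale this sum was lower on the right in 6 of 6 embryos, and 15 of the 18 transcripts of the list at 2 CPM or more had a mean difference below zero, with a median of -0.15 on the log2 scale. Of all 787 transcripts with a gene name at that level, 61% had a mean below zero. The median of the list was -0.26 in DNBCAT and -0.09 in mCherry embryos, against -0.10 and -0.03 over the named transcripts. NOXO1 (182 CPM, -1.11 ± 1.06) and ALDH1A3 (156 CPM, -1.03 ± 1.03) fell most, with SDs about as large as their means (n = 6 embryos). NOXO1 was lower on the right in 6 and ALDH1A3 in 5 of 6 embryos. SOHO-1 (259 CPM, -0.07 ± 0.41) and LMX1A (158 CPM, -0.09 ± 0.12) had means near zero (SD, n = 6 embryos). Those with means above zero were HOXA3 (2.36 CPM, 2.90 ± 4.23), FGF3 (5.77 CPM, 0.07 ± 0.54) and TBX2 (14.4 CPM, 0.05 ± 0.35; SD, n = 6 embryos). HOXA3 thus had the largest mean difference of the list in size. It was lower on the right in 1 of 6 embryos, and with its 0 counts its mean depends on the prior count. The part of this list in the results was not tested. The summed TPM of 18 mesenchymal marker transcripts was 552 to 973 on the right and 690 to 962 on the left, and was lower on the right in 3 of 6 embryos on the CPM scale.

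How often the same rule finds transcripts when the sides are named otherwise was counted by exchanging right and left within embryos. With the sides as labelled it found 122. The 31 other ways of naming the sides gave 34 to 110 transcripts (median 52). Exchanging a single embryo gave 110 transcripts for embryo 60, 75 for embryo 61, 67 for embryo 50, 64 for embryo 52, 55 for embryo 62 and 38 for embryo 51. The labelled sides thus gave the highest of the 32 counts, and most of the other counts were under 70. These counts describe the set and are not a test of it. Without embryo 51, the rule over the other 5 embryos found 189 transcripts, against 109 to 180 (median 130) for the 15 other ways, so the distance between the labelled sides and the nearest other way was small in both counts.

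**Figure D1:**
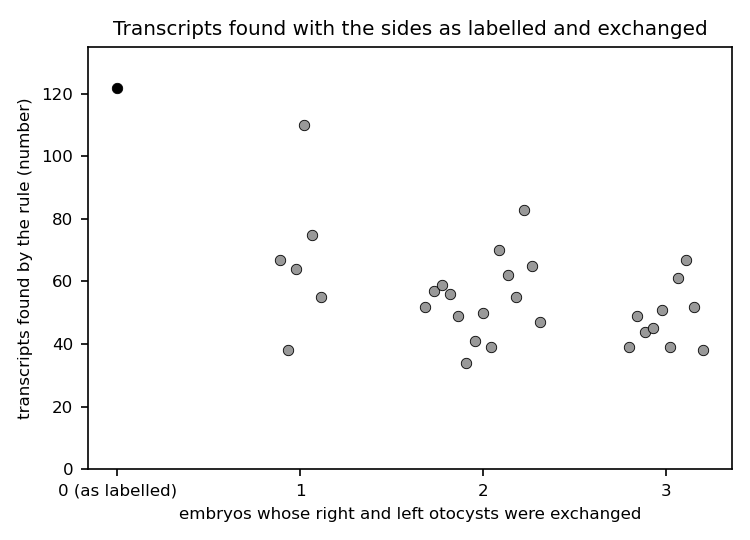
Number of transcripts found by the rule (vertical axis) against the number of embryos whose right and left otocysts were exchanged (horizontal axis). The black point is the labelled arrangement with 122 transcripts, and the 31 grey points are the other arrangements, which lie between 34 and 110.

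A size of 0.15 is small, and many transcripts lay near it. In all, 1245 of the 15060 transcripts (8.27%) had 1 direction in all 6 embryos whatever the size, 660 higher on the right (4.38%) and 585 lower (3.88%). Thus the lower transcripts were the smaller group without the condition on size, and the larger group, 86 of 122 (70.5%), with it. The smallest difference among the 6 embryos was under 0.20 for 38 of the 122 and at least 0.50 for 15. Within 0.01 of the limit, 10 transcripts lay inside and 17 outside. The split between directions also rested on the scaling: with the TPM values as deposited, which moved the median difference of all 15060 transcripts to -0.16 from -0.0083 on the TMM scale, the rule found 163 transcripts, 11 higher and 152 lower, and 91 of them were among the 122. With DESeq2 size factors it found 121 (42 higher, 79 lower), of which 115 were among the 122.

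The 122 transcripts were mostly of low level. Their median was 5.65 CPM, against 20.7 CPM over the 15060. Of the 122, 55 (45.1%) averaged 2 to 5 CPM, as did 18.8% of all 15060, and 1 reached 100 CPM, as did 15.4% of all. At least 1 of the 12 otocysts had 0 counts for 23 of the 122 (18.9%), against 6.98% over all, and 99 had counts in every otocyst (30 higher, 69 lower). With counts under 3 set to 3, a limit of 0.189 to 0.254 CPM in the right and 0.195 to 0.232 CPM in the left libraries, 117 of the 122 still met the conditions (36 higher, 81 lower). The median size of the mean difference was 0.72 on the log2 scale, and it was the same with the transcripts at 0 placed at that limit. In size, the mean differences ran from 0.22 to 4.89, and the largest belonged to transcripts with 0 counts in several otocysts.

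Transcript length differed between the 2 directions. The median length was 1784 bases for the 36 higher and 2758 bases for the 86 lower transcripts, against 2318 bases over all 15060. The same order held without the condition on size, with medians of 1808 bases for the 660 higher and 2670 bases for the 585 lower transcripts. Across the 15060 transcripts, which share their libraries and are not independent, Spearman's correlation of length with right minus left was -0.23 in embryo 50, -0.27 in embryo 51 and 0.071 in embryo 52, and -0.043, -0.11 and -0.091 in embryos 60, 61 and 62. The relation was negative in 5 embryos and positive in embryo 52. The part of length in the directions was not tested.

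Names could be paired with few transcripts: 827 of the 28756 were paired with a gene name through the study's lists, marker headers and Wnt pathway values, and 787 of these reached 2 CPM. Of the 787, 14 (1.78%) were among the 122, as were 0.757% of the 14273 transcripts without a name. The named transcripts are therefore not a fair sample of the 122, because names were available mainly for genes that responded in some experiment of the study, and CXCL14, NCAM2, CYTL1 and ZNF804A were in its list for DNBCAT, chosen on these same otocysts. Of the 14, 13 were lower on the right and FAT1 was higher.

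**Figure D2:**
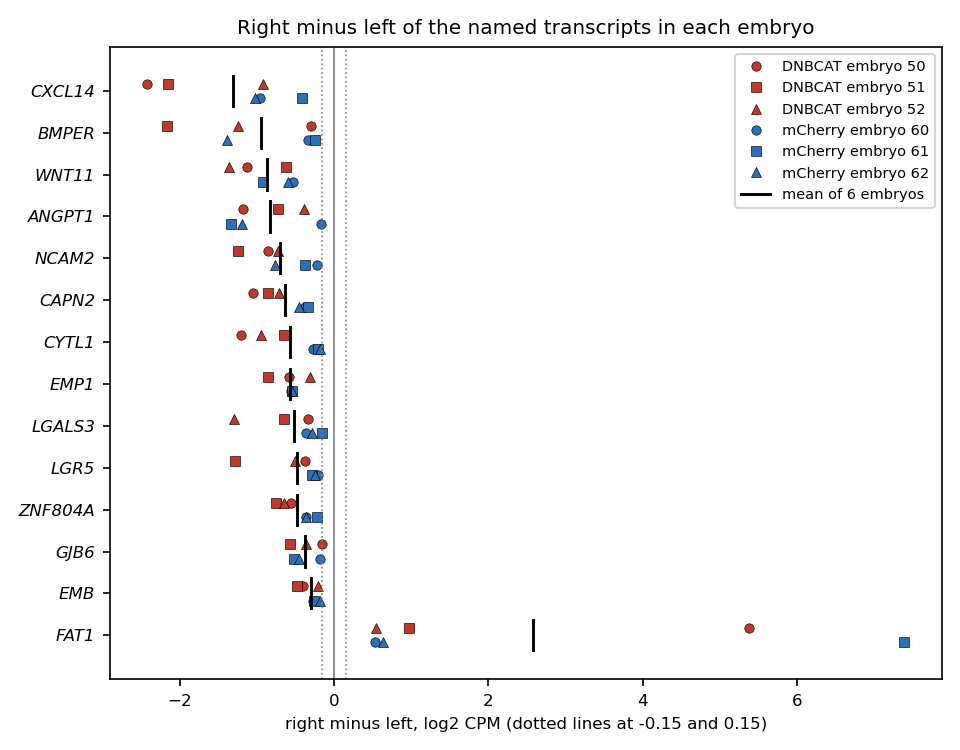
Right minus left in log2 CPM (horizontal axis) of the 14 named transcripts (rows) in each embryo, with DNBCAT embryos in red, mCherry embryos in blue, black bars for the mean of 6 embryos and dotted lines at the limit of 0.15. All 6 points of 13 transcripts lie left of zero, those of FAT1 lie to the right, and the points of FAT1 beyond 5 belong to embryos 50 and 61, whose left otocysts had 0 counts, so that their position depends on the prior count.

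Components of the Wnt pathway were represented by a ligand and a receptor. WNT11, a ligand best known for β-catenin-independent signalling in cell movement and polarity, had 2.42, 2.96 and 1.72 CPM in the right otocysts of DNBCAT embryos 50, 51 and 52, against 5.35, 4.56 and 4.49 CPM in their left otocysts. In the mCherry embryos 60, 61 and 62 it had 3.30, 2.79 and 3.28 CPM on the right, against 4.80, 5.32 and 4.97 CPM on the left. Every right otocyst was below every left otocyst, whichever the plasmid, and the mean difference was -0.86 ± 0.34 on the log2 scale (SD, n = 6 embryos). The level rested on 26 to 82 estimated counts per otocyst. LGR5, a receptor for R-spondins that strengthens Wnt signalling and is itself a known Wnt target, had 30.9, 16.6 and 39.0 CPM in the right otocysts of DNBCAT embryos, against 40.2, 40.4 and 55.4 CPM in the left ones. In mCherry embryos it had 47.3, 39.1 and 33.7 CPM on the right, against 54.7, 47.6 and 39.8 CPM on the left. The right and left ranges overlapped, and the difference was largest in embryo 51 (-1.28), without which the mean was -0.32 instead of -0.48.

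The other listed genes of the pathway are described beside this pair. The list was written with earlier results of these data known, and names were available mainly for genes that responded in the study. Its counts are therefore no independent evidence of a wider shift. Of 27 listed Wnt pathway and feedback genes with a paired transcript at 2 CPM or more, 2 met the rule, 22 had a mean below zero, and 8 were lower on the right in all 6 embryos: WNT11, LGR5, WNT2B, WNT5A, AXIN2, APCDD1, LGR4 and FZD3. Over all 787 named transcripts at this level, 1.78% met the rule, 61% had a mean below zero and 10.2% were lower in all 6 embryos, and over all 15060 these shares were 0.81%, 51.7% and 3.88%. The 6 of these that did not meet the rule had mean differences of -0.73 ± 0.56 for the ligand WNT2B, -0.31 ± 0.23 for the ligand WNT5A, -0.50 ± 0.36 for AXIN2, a feedback inhibitor, -0.52 ± 0.46 for the Wnt inhibitor APCDD1, -0.29 ± 0.28 for the R-spondin receptor LGR4 and -0.19 ± 0.16 for the receptor FZD3 (SD, n = 6 embryos each). APCDD1 came nearest to the limit, with a smallest difference of 0.113. The median over the 27 was -0.28, against -0.05 over the named and -0.0083 over all transcripts. In DNBCAT embryos it was -0.46, against -0.10 over the named transcripts, and in mCherry embryos -0.11, against -0.03. Without embryo 51 it was -0.18, and it kept its sign with DESeq2 size factors (-0.27) and with TPM (-0.41, against -0.16 for all transcripts on that scale). In all 6 embryos, edgeR's quasi-likelihood test of right against left called 0 of 19298 transcripts at an adjusted p of 0.05. It therefore called no gene of the list. DESeq2's Wald test called 298 of 10318 transcripts in the same comparison, and its calls within the list are not given here. The study, with its own test, had called at least SFRP1, WNT2B, AXIN2, MSX1 and MSX2 of this list in the DNBCAT otocysts.

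Several of the named transcripts encode secreted signals and modulators. CXCL14, a chemokine, had 18.1, 7.27 and 10.7 CPM in the right otocysts of DNBCAT embryos 50, 51 and 52, against 96.5, 32.4 and 20.3 CPM in their left otocysts. In mCherry embryos it had 12.4, 22.2 and 10.6 CPM on the right, against 24.1, 29.7 and 21.5 CPM on the left. The left otocyst of embryo 50 was far above all others, and the mean difference was -1.31 ± 0.79 over the 6 embryos and -1.09 without embryo 50. BMPER, a secreted protein that binds BMPs and modulates their signalling, had 42.4, 11.1 and 29.6 CPM in the right otocysts of DNBCAT embryos, against 52.2, 49.7 and 70.3 CPM in the left ones. In mCherry embryos it had 51.4, 43.0 and 24.8 CPM on the right, against 64.9, 50.9 and 64.7 CPM on the left. Its size was uneven among embryos: the difference was -0.30, -2.16 and -1.25 in the DNBCAT embryos and -0.34, -0.25 and -1.39 in the mCherry embryos, so large and small values occurred with both plasmids.

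CYTL1, a secreted cytokine-like protein, had 32.7, 39.6 and 17.2 CPM in the right otocysts of DNBCAT embryos, against 75.4, 61.8 and 33.1 CPM in the left ones. In mCherry embryos it had 47.0, 39.6 and 33.0 CPM on the right, against 56.8, 45.8 and 37.3 CPM on the left. Each of the 3 DNBCAT differences (-1.21, -0.64 and -0.94) was larger in size than each of the 3 mCherry differences (-0.27, -0.21 and -0.18). ANGPT1, a ligand of the endothelial receptor TEK, showed no such split, with differences of -1.18, -0.72 and -0.39 in DNBCAT embryos and of -0.17, -1.33 and -1.19 in mCherry embryos. Its levels were low, at 3.30, 3.55 and 3.78 CPM in the right and 7.51, 5.88 and 4.95 CPM in the left otocysts of DNBCAT embryos, and 7.18, 2.33 and 1.96 CPM in the right and 8.09, 5.90 and 4.51 CPM in the left otocysts of mCherry embryos. Endothelial, blood and muscle markers, of which 2 transcripts were measured, summed to 30.2 to 56.6 TPM on the right and 48.1 to 63.9 TPM on the left. On the CPM scale their sum was lower on the right in 2 of 6 embryos. The mean differences were 0.05 for FLT4 and -0.09 for ACTA1, with a median of -0.02. The part of these markers in the ANGPT1 difference was not tested.

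**Figure D3:**
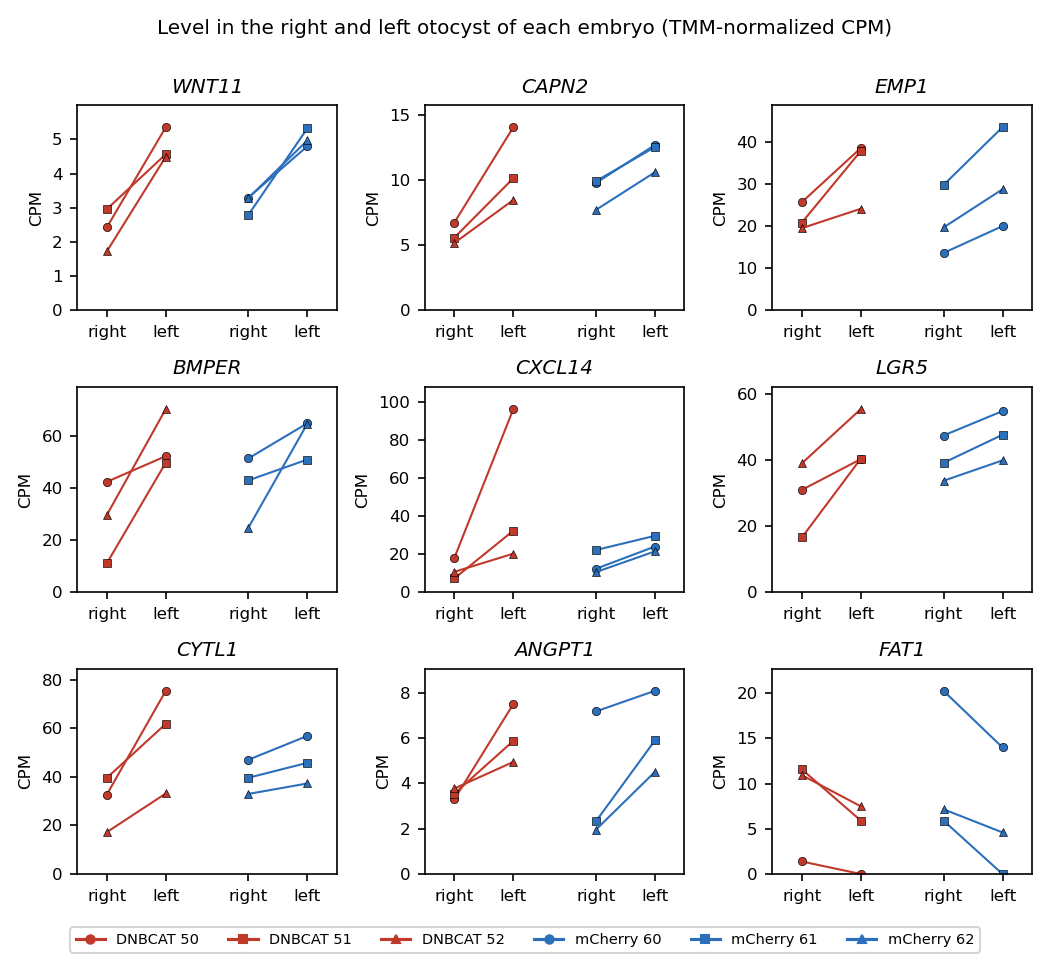
CPM (vertical axes, starting at zero) of 9 named transcripts in the right and the left otocyst of each embryo, with a line joining the otocysts of 1 embryo, DNBCAT embryos in red and mCherry embryos in blue. The lines of 8 transcripts go up towards the left otocyst in all 6 embryos and those of FAT1 go down, and only for WNT11 do all right points lie below all left points.

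Other named transcripts encode membrane, adhesion and junction proteins. EMP1, a membrane protein of the PMP22 family found in many epithelia, had even differences in the mCherry embryos, at -0.55, -0.55 and -0.55, and differences of -0.58, -0.86 and -0.31 in the DNBCAT embryos. Its level was 22.1 ± 3.3 CPM on the right and 33.6 ± 8.1 CPM on the left in DNBCAT embryos, and 21.0 ± 8.2 CPM on the right and 30.8 ± 11.9 CPM on the left in mCherry embryos (SD, n = 3 each). The embryos thus varied more in level than in the difference between their ears. GJB6, which encodes the gap junction protein connexin 30 of the cochlear supporting cells, lay just inside the limit with a smallest difference of 0.151 in embryo 50. It had 49.4 ± 10.9 CPM on the right and 63.1 ± 10.0 CPM on the left in DNBCAT embryos, and 57.4 ± 3.9 CPM on the right and 74.98 ± 9.37 CPM on the left in mCherry embryos (SD, n = 3 each). The mean difference of GJB6 was close in both datasets, at -0.36 in DNBCAT and -0.38 in mCherry embryos.

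NCAM2, a cell adhesion molecule of the immunoglobulin superfamily, had 8.07 ± 1.94 CPM on the right and 16.1 ± 6.8 CPM on the left in DNBCAT embryos, and 13.6 ± 7.2 CPM on the right and 18.8 ± 9.4 CPM on the left in mCherry embryos (SD, n = 3 each). EMB, an immunoglobulin superfamily protein that accompanies monocarboxylate transporters to the membrane, had the smallest mean difference of the named transcripts, -0.30 ± 0.11 (SD, n = 6 embryos), with 25.4 ± 1.3 CPM on the right and 32.8 ± 2.6 CPM on the left in DNBCAT embryos and 32.4 ± 11.2 CPM on the right and 38.5 ± 14.3 CPM on the left in mCherry embryos (SD, n = 3 each). With the deposited TPM values, on which all transcripts were shifted downwards, its mean difference was -0.44.

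FAT1, a giant cadherin of cell contacts and growth control, was the only named transcript that was higher on the right. It had 1.39, 11.6 and 10.9 CPM in the right otocysts of DNBCAT embryos 50, 51 and 52, against 0, 5.90 and 7.48 CPM in the left ones. In mCherry embryos 60, 61 and 62 it had 20.3, 5.91 and 7.16 CPM on the right, against 14.0, 0.00133 and 4.60 CPM on the left. The left otocysts of embryos 50 and 61 had 0 estimated counts after rounding. Against a limit of 3 counts in those libraries, FAT1 was at least 7.08-fold higher on the right in embryo 50 and at least 27.4-fold higher in embryo 61, and in the other 4 embryos the fold was 1.45 to 1.96. The mean over 6 embryos was 2.57 on the log2 CPM scale with the prior count of 0.5, 1.61 without embryo 61 and 0.45 on the log2(TPM + 0.5) scale, on which the added 0.5 is close to the median level of this transcript of 14934 bases (0.627 TPM). Kallisto divides reads among transcripts that share sequence, and whether reads of FAT1 went to another transcript in those 2 libraries was not tested.

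The remaining named transcripts were CAPN2, ZNF804A and LGALS3. CAPN2, the large subunit of a calcium-dependent protease, had 6.74, 5.58 and 5.17 CPM in the right otocysts of DNBCAT embryos, against 14.0, 10.1 and 8.47 CPM in the left ones, and 9.77, 9.91 and 7.70 CPM in the right otocysts of mCherry embryos, against 12.7, 12.5 and 10.6 CPM in the left ones. The right range of CAPN2 lay below its left range within each dataset, although the ranges over all 12 otocysts overlapped. ZNF804A, a zinc finger protein, had 24.9 ± 7.5 CPM on the right and 38.6 ± 9.9 CPM on the left in DNBCAT embryos, and 43.6 ± 7.9 CPM on the right and 53.9 ± 6.8 CPM on the left in mCherry embryos (SD, n = 3 each). LGALS3, the carbohydrate-binding protein galectin-3, had 15.2 ± 5.3 CPM on the right and 24.8 ± 4.5 CPM on the left in DNBCAT embryos, and 15.6 ± 4.7 CPM on the right and 18.8 ± 5.6 CPM on the left in mCherry embryos (SD, n = 3 each). LGALS3 was also in the list of epithelial markers, of which 10 transcripts were measured and 9 had a mean below zero. The list's median was -0.46 (-0.65 in DNBCAT and -0.29 in mCherry embryos). The exception was its most abundant transcript, KRT24 (205 CPM, 0.06 ± 0.23), lower on the right in 2 of 6 embryos. ANXA2 had the largest mean difference of the list (-1.33 ± 1.01) and was lower in 5 of 6 embryos (SD, n = 6 each). Of all 787 named transcripts at 2 CPM or more, 61% had a mean below zero and 10.2% were lower in all 6 embryos. The keratin KRT7 (-0.60 ± 0.38) and S100A11 (-0.38 ± 0.33) were, besides LGALS3, lower in all 6 embryos, and the summed TPM of the list was 296 to 600 on the right and 608 to 784 on the left, without overlap. TPM values as a whole were shifted downwards on the right, and the right otocyst of embryo 51 had 1 transcript at 75140 TPM, which lowers its other TPM values. On the CPM scale the sum was lower on the right in 6 of 6 embryos. On the scale of DESeq2 size factors the list's median was -0.45, and on that of TPM it was -0.57, beside -0.16 for all transcripts.

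Most of the 122, namely 108, carried no gene name (35 higher, 73 lower), and the transcripts with the largest smallest differences were among them. ENSGALT00000065509.2 had 9.83, 15.8 and 2.71 CPM in the right otocysts of DNBCAT embryos, against 1.90, 6.54 and 1.14 CPM in the left ones, and 5.63, 11.4 and 17.9 CPM in the right otocysts of mCherry embryos, against 0.0994, 0.449 and 3.68 CPM in the left ones. It was higher on the right by at least 1.23 on the log2 scale in every embryo, and its level varied as widely among the left otocysts as between the sides. ENSGALT00000069044.2 had 2.98, 16.7 and 11.7 CPM on the right in DNBCAT embryos and 0.354, 4.58 and 3.17 CPM on the right in mCherry embryos, and 4 of its left otocysts were at 0 counts, while the left otocyst of embryo 52 had 5.86 CPM and that of embryo 61 had 0.527 CPM.

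Among the unnamed lower transcripts, ENSGALT00000104417.1 was at 0 counts in 5 of 6 right otocysts and at 2.25 CPM in the right otocyst of embryo 60. Its left otocysts had 2.75, 0.443 and 0.128 CPM in DNBCAT embryos and 12.2, 3.19 and 8.47 CPM in mCherry embryos. In embryo 52, with 0 counts on the right and 0.128 CPM on the left, both sides were under the limit of 3 counts. Its direction in that embryo cannot be read, and its smallest difference (2.25), which lay there, depends on the prior count. ENSGALT00000036455.4 had 1.42, 0 and 1.10 CPM in the right otocysts of DNBCAT embryos, against 3.86, 1.96 and 4.28 CPM in the left ones, and 0.835, 2.59 and 1.95 CPM in the right otocysts of mCherry embryos, against 5.72, 4.46 and 6.96 CPM in the left ones. All 4 transcripts were of low level, and in each of them the right and left ranges overlapped. Over the whole set, the ranges of the 6 right and the 6 left otocysts did not overlap for 9 of the 122 (8 lower, 1 higher). Over all 15060 transcripts this was so for 21 (0.139%), and nothing is read from it, because the rule used the same values.

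For the same reason, the tests of right against left only describe the set. The quasi-likelihood test of edgeR gave an unadjusted p under 0.05 for 101 of the 122 in all 6 embryos (9.22% of all transcripts tested), 49 of 121 in the 3 DNBCAT embryos (6.2% of all) and 50 of 122 in the 3 mCherry embryos (3.75% of all). After Benjamini-Hochberg adjustment edgeR called 0 in each of them, and the smallest adjusted p-values among the 122 were 0.538, 0.718 and 0.96. In all 6 embryos, DESeq2 gave an adjusted p to 10318 of 19298 transcripts, so members without one could not be called, and their number was not counted. Its Wald test called 30 of the 122 there (2.89% of the 10318), 17 in the DNBCAT embryos (2.33% of all) and 6 in the mCherry embryos (0.425% of all). The calls therefore rested on the tool, and the differences in the set are given by their sizes in each embryo.

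The size of the differences was then compared between the plasmids. The mean difference was larger in size in the DNBCAT embryos for 89 of the 122 (24 of 36 higher, 65 of 86 lower) and in the mCherry embryos for 33. The share of 73% was near that of all 15060 transcripts, of which 10354 (68.8%) had the larger difference in the DNBCAT embryos. Among the 122, the median size was 0.72, 0.89 and 0.53 in embryos 50, 51 and 52, and 0.43, 0.45 and 0.58 in embryos 60, 61 and 62. The smallest of the 6 differences fell in an mCherry embryo for 79 of the 122 and in a DNBCAT embryo for 43. In 1 mCherry embryo, 62, the median size was above that of DNBCAT embryo 52, so the datasets were not separated by this measure. Over all 15060 transcripts the median size was 0.22, 0.36 and 0.18 in embryos 50, 51 and 52, and 0.14, 0.15 and 0.17 in embryos 60, 61 and 62, so the larger sizes in DNBCAT embryos were not particular to the 122.

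**Figure D4:**
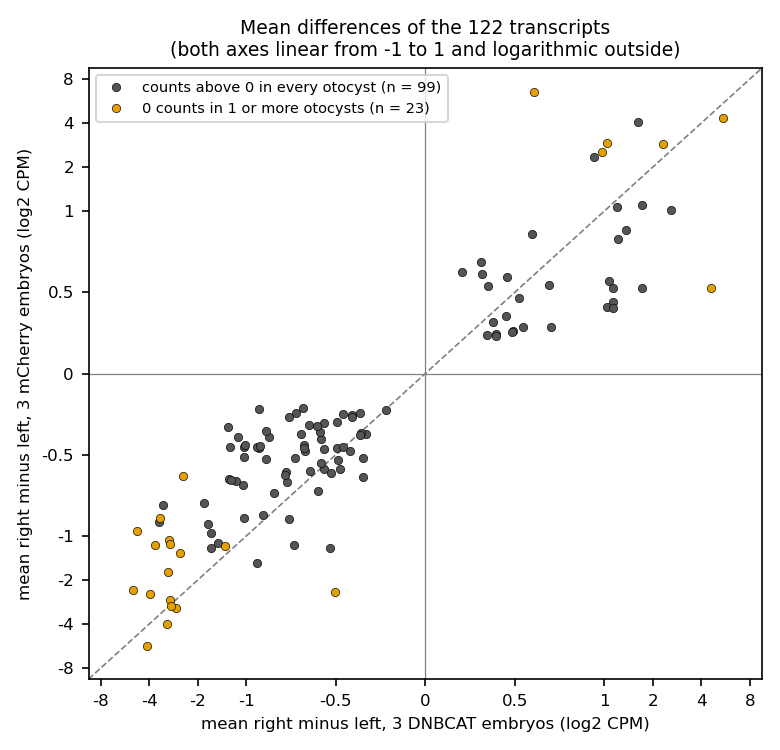
Mean right minus left in the 3 DNBCAT embryos (horizontal axis) and in the 3 mCherry embryos (vertical axis) of the 122 transcripts, in log2 CPM, with axes that are linear from -1 to 1 and logarithmic outside and a dashed line of equal values. The rule places all points in 2 quadrants, 89 points are farther from zero along the horizontal than along the vertical axis, and most of the largest differences belong to the 23 transcripts with 0 counts in an otocyst (orange).

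The difference between the datasets was tested over all 12 otocysts with edgeR's quasi-likelihood test of the interaction of side and plasmid, blocked by embryo and adjusted by the Benjamini-Hochberg method. It called 0 of 19298 transcripts, and the smallest adjusted p-value from edgeR among the 122 was 0.567. At an unadjusted p under 0.05 it passed 6 of the 122 (4.92%), beside 842 of all (4.36%), so the share among the 122 was near the background. The rule asks for the same sign in both datasets, which limits how far a member can differ between them. DESeq2's Wald test called 64 of all (0.332%) and 1 of the 122.

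The 3 named transcripts of these 6 were all lower on the right and differed more in DNBCAT embryos. For CYTL1, the difference between the datasets was -0.71 ± 0.16 on the log2 scale (SE), with an unadjusted p of 0.00351 and an adjusted p of 0.935 (edgeR, Benjamini-Hochberg). In the alternatives the adjusted p of CYTL1 ran from 0.0562 with DESeq2's Wald test to 1. For ZNF804A, the difference was -0.33 ± 0.10 (SE; edgeR, unadjusted p = 0.0159 and adjusted p = 0.935), and all 3 DNBCAT differences (-0.56, -0.75 and -0.65) were larger in size than all 3 mCherry differences (-0.36, -0.23 and -0.36). For CXCL14, it was -1.05 ± 0.42 (SE; edgeR, unadjusted p = 0.0448 and adjusted p = 0.935), and the DNBCAT difference of embryo 52 (-0.92) was smaller in size than the mCherry differences of embryos 60 (-0.96) and 62 (-1.02). As the study had chosen all 3 from these otocysts, these values are no independent evidence of a difference between plasmids. For WNT11 the interaction was -0.36 ± 0.37, for LGR5 -0.46 ± 0.24, for BMPER -0.55 ± 0.52 and for ANGPT1 0.13 ± 0.45 (SE), none of which passed either threshold.

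The member called by DESeq2 was an unnamed transcript of 1561 bases that was higher on the right. It had 7.08, 27.8 and 16.1 CPM in the right otocysts of DNBCAT embryos, against 4.24, 23.1 and 9.06 CPM in the left ones, and 3.36, 3.61 and 6.02 CPM in the right otocysts of mCherry embryos, against 0.00324, 0 and 0.0435 CPM in the left ones. It was therefore present on both sides in DNBCAT embryos and nearly only on the right in mCherry embryos. The adjusted p of its interaction was 0.567 with edgeR and 6.26e-05 with DESeq2.

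Whether the members differed between the embryos of the 2 datasets without electroporated tissue was asked in the 6 left otocysts, a comparison that the rule did not use. edgeR's quasi-likelihood test called 0 of 19647 transcripts after Benjamini-Hochberg adjustment. At an unadjusted p under 0.05 it passed 4 of the 121 members tested (3.31%), beside 454 of all (2.31%), and DESeq2's Wald test called 43 of all (0.219%) and 1 member. The 4 were all without a name, and they included the transcript of 1561 bases described above and ENSGALT00000104417.1. No named transcript passed the unadjusted threshold. The largest left differences of the named transcripts, DNBCAT minus mCherry, were 0.98 ± 0.56 for CXCL14 and -0.49 ± 0.21 for ZNF804A (SE), and WNT11, at -0.07 ± 0.24 (SE), was close in the left otocysts of both datasets.

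The direction was also followed in embryos that had not been used for a choice. Applied to the 3 mCherry embryos alone, the rule found 499 lower transcripts, of which 139 (27.9%) were lower in all 3 DNBCAT embryos and 30 (6.01%) were higher in all 3. Over all 15060 transcripts, 17.4% were lower and 18.1% were higher in all 3 DNBCAT embryos. The 410 transcripts that were higher in the mCherry embryos showed less of this: 70 (17.1%) were higher in all 3 DNBCAT embryos, beside 18.1% of all, and 51 (12.4%) were lower in all 3, beside 17.4%. With a mean of at least 10 CPM, the share of higher transcripts with the same direction was 25%, beside 22.5% of all 9980 transcripts at that level.

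Chosen in the 3 DNBCAT embryos, the lower transcripts numbered 1150, of which 275 (23.9%) were lower and 79 (6.87%) higher in all 3 mCherry embryos, beside 14.1% and 13.8% of all transcripts. The higher transcripts numbered 793, of which 201 (25.3%) were higher and 49 (6.18%) lower in all 3 mCherry embryos, beside 13.8% and 14.1% of all. In 3 of the 4 choices, the share with the same direction in the other dataset was above the share of all transcripts, and for the transcripts higher in mCherry embryos it was below it at 2 CPM or more and above it at 10 CPM or more. These shares come from embryos that share no otocyst, but the side and the depth moved together in both datasets. Their part was not tested.

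Other gene lists held no member. Of 18 measured transcripts of immediate early and stress response genes, 0 met the rule, 11 had a mean above zero and the median was 0.05. Among the 787 named transcripts at 2 CPM or more, by comparison, 61% had a mean below zero and the median was -0.05. Of the 18, the heat shock responsive ZFAND2A came nearest, with a smallest difference of 0.125. It was higher on the right in all 6 embryos, with a mean of 0.41 ± 0.26 (SD, n = 6). HSPD1, a mitochondrial chaperone, was also higher in all 6 (0.26 ± 0.19; SD, n = 6). BTG2 (-0.41 ± 0.34), KLF6 (-0.24 ± 0.28) and TIPARP (-0.21 ± 0.24) went the other way, each lower in 5 of 6 embryos (SD, n = 6). EGR1, under the level condition at 1.26 CPM, was lower in all 6 (-0.38 ± 0.30; SD, n = 6). CDKN1A of the same list, also under that condition at 1.32 CPM, was higher in all 6 (1.65 ± 1.08; SD, n = 6). It missed the rule by its level only, with a smallest difference of 0.471, and is described below. Among 15 transcripts of endoplasmic reticulum stress genes (median 0.01) and 8 of the response to cytosolic DNA and inflammation (median -0.07), 0 met the rule. In all 6 embryos, EDEM3 of the first list was lower (-0.23 ± 0.20) and HSPA5 of the first list was higher (0.06 ± 0.06). ZNFX1 of the second list was lower in all 6 embryos (-0.25 ± 0.17; SD, n = 6 for each). The medians of these 3 lists lay within 0.07 of zero.

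All 10 hypoxia and glycolysis transcripts had a mean below zero (median -0.35, with -0.53 in DNBCAT and -0.12 in mCherry embryos). The procollagen hydroxylase gene P4HA1 (-0.41 ± 0.31) and the stress-induced mTOR inhibitor DDIT4 (-0.46 ± 0.27) were lower in all 6 embryos (SD, n = 6 each), but the smallest difference of each was under the limit. Of all 787 named transcripts at 2 CPM or more, 61% had a mean below zero and 10.2% were lower in all 6 embryos. Names were available mainly for genes that responded in the study, and the study had called LDHA of this list in the DNBCAT otocysts. Of 28 cell cycle and DNA replication transcripts, 24 had a mean above zero with a median of 0.09, which on the TPM scale was -0.07, beside -0.16 for all transcripts. On the CPM scale the median was 0.21 in DNBCAT and 0.03 in mCherry embryos, where 3 and 8 of the 28 had a mean below zero. All 14 ribosomal protein transcripts had a mean above zero, with a median of 0.18, which was 0.05 without embryo 51. Their median was 0.29 in DNBCAT and 0.07 in mCherry embryos. The otic neuroblast markers (17 transcripts of 12 genes, median -0.10) held no member, although 14 of the 17 had a mean below zero, beside 61% of the named transcripts. Their CPM sum was lower on the right in 6 of 6 embryos. Their summed TPM was 3027 to 4753 on the right and 4805 to 5091 on the left, without overlap on that downward-shifted scale. Both sums rested mainly on STMN1, of which 1 transcript averaged 2132 CPM with a mean difference of -0.09, so they say little about the other markers. Of these, NEUROD1 (-0.37 ± 0.23), CRMP1 (-0.45 ± 0.48) and TLX1 (-1.42 ± 1.27, at 2.32 CPM) were lower on the right in 5 of 6 embryos. RET (-0.62 ± 0.78) was lower in 4 of 6 (SD, n = 6 each). For EBF3, the mean was -0.54 in the transcript at 9.85 CPM and 0.04 in that at 78.2 CPM. Both GADD45G transcripts had means above zero (0.01 and 0.13). The Notch pathway (11 transcripts, median -0.03) held no member.

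The just-missed transcripts with names were, at the limit of size, AMIGO3 (smallest difference 0.146), AMPH (0.139) and CPAMD8 (0.135), all lower on the right. The condition on level left out 94 transcripts that otherwise met the rule, of which 3 had names. CDKN1A, the cell cycle inhibitor p21 induced by p53, averaged 1.32 CPM and was higher on the right in all 6 embryos, with 4.04, 3.09 and 3.18 CPM in the right otocysts of DNBCAT embryos, against 0.522, 0.619 and 0.456 CPM in the left ones, and 0.517, 0.864 and 1.01 CPM in the right otocysts of mCherry embryos, against 0.274, 0.504 and 0.719 CPM in the left ones. The values of CDKN1A rested on 4 to 60 estimated counts, and all 3 right otocysts of DNBCAT embryos were above all other 9 otocysts. CORIN, a membrane serine protease (mean 0.795 CPM), and VGLL1, a cofactor of TEAD transcription factors (mean 1.06 CPM), were lower on the right in all 6 embryos, with mean differences of -1.02 and -2.23. CORIN rested on 3 to 24 estimated counts. VGLL1 had 8.03 CPM in the left otocyst of embryo 50. In embryos 60 and 62 it had 0 CPM on the right, against 0.137 and 0.0654 CPM on the left. Both sides were there under the limit of 3 counts, so its direction in these embryos cannot be read and its mean depends on the prior count.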

How the data were processed

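Single otocysts of both datasets were sequenced as 43 bp paired-end SMART-Seq v4 libraries from RNA with an integrity number of at least 9. The authors quantified the reads with Kallisto (GRCg6a; version not given in the sources used here) and deposited, per transcript, estimated counts, which are not normalized, TPM values and the lengths. The number of counts limits precision for transcripts of a few CPM, and without molecular identifiers limits of 3 counts cover counting error only.

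Here the estimated counts were scaled by TMM factors (edgeR 4.0.16, R 4.3.3) and log2 CPM were computed with a prior count of 0.5. The members, gene lists and rules for naming genes were chosen with earlier results of these data known. Named are all members with a gene name, the 2 unnamed members in each direction with the largest smallest-pair difference, and list genes nearest the limit. The sequence of no member was used here. Names came mainly from the study's lists of responding transcripts. Others came from the headers of its mesenchymal markers, or from its TPM values of Wnt pathway genes where these equalled the TPM of a single transcript. LGR5 was named in the last way. Of the 827 names, 800 match a RefSeq symbol. The study's own fold changes and p-values were not used.

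Estimated counts were rounded and tested two-sided with edgeR's quasi-likelihood test, Benjamini-Hochberg adjusted, for transcripts that reached 5 estimated counts in 47% or more of the libraries. The embryo was a block, except in the comparison of left otocysts, which came from different embryos and had no block. All 122 members passed this filter over the 12 libraries and 121 over the 6 left ones. Right and left otocysts with 1 number come from 1 embryo, and their deviations from the group means correlated with r = 0.099 to 0.389. Alternatives were DESeq2 1.42.0, other filters, scalings and limits, no block, and each embryo left out. The scripts were tested on simulated data. Plots used matplotlib 3.10.9. The only replicates are the embryos, and sums per gene were not run because few transcripts are paired with genes.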

Additional observations from a re-analysis of the deposited data

Results flagged for a closer look

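Of 28 sets of 6 values tested with Dixon's ratio (the left otocysts and the right minus left differences of the 14 named transcripts), 3 had a value far from the others. For values free of any choice, chance flags about 1 set in 20. The differences were used by the rule that chose the transcripts, so this rate does not apply to them and the number of sets is not read against it. CXCL14 had 96.5 CPM in the left otocyst of embryo 50, and the other 5 left otocysts lay between 20.3 and 32.4 CPM (ratio 0.841). EMB had 54.6 CPM in the left otocyst of embryo 60, and the others had 27.4 to 34.9 CPM (ratio 0.723); the right otocyst of that embryo was also the highest of the right otocysts, at 45.2 CPM. LGR5 had a right minus left difference of -1.28 in embryo 51, whose right library stood apart, and of -0.21 to -0.51 in the other 5 embryos (ratio 0.723).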

How the results depend on the processing

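The number of transcripts found was 122. It was 237 with a limit of 0.10, 59 with 0.25, 216 without a minimum level and 40 with a mean of at least 10 CPM, and 189 to 384 when the rule was applied to 5 embryos, of which 116 to 122 were among the 122. A prior count of 2 gave 119. The highest number with sides exchanged was 110, and 180 without embryo 51; this count, the limit of 3 counts and the count of members above 0 everywhere were added after seeing the data. Chosen in one dataset and followed in the other with a mean of at least 10 CPM, the shares with the same direction were 25% for higher in Control EP (17.1% without that condition), 28.8% for higher in Wnt LOF EP 24 h (25.3%) and 27.6% for lower in Wnt LOF EP 24 h (23.9%), beside 22.5%, 15.1% and 13.9% of all transcripts at that level. edgeR's quasi-likelihood test called 0 transcripts in every comparison, and also under its other settings except 1: with at least 10 counts in every library it called LDHA, not a member, lower on the right in the DNBCAT embryos (-1.48, adjusted p = 0.0465), a gene named after its value was seen. DESeq2's Wald test called 298 transcripts for right against left in all embryos, 453 in Wnt LOF EP 24 h, 84 in Control EP, 64 for the difference between the datasets and 43 between left otocysts; the cause was not tested. At an unadjusted p under 0.05, edgeR passed 1779, 1204, 740, 842 and 454 transcripts in these comparisons. Leaving out each embryo in turn gave 0 calls in each, and the fit without the replicate block also gave 0. Of the alternative means of the 14 named members, 125 moved by less than 1 SD and 1, that of EMB with TPM (-0.44), by more, and none changed sign. Levels of a few CPM, and 3 embryos per plasmid, limit what could be detected.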
